A study of Homo sapiens with 6 samples.

Results

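HMOX1 and 9 further genes of the NRF2-BACH1 oxidative stress response were followed in THP-1 cells, an established human monocytic leukaemia cell line, cultured with IL-6 or as controls. The 10 genes were chosen by name, with earlier results of these data known. HMOX1, NQO1, GCLM, GCLC, TXNRD1, SRXN1 and OSGIN1 were taken as targets of NRF2, and NFE2L2, KEAP1 and BACH1 as regulators. All 10 had a value in each of the 6 RNA-seq libraries, among 60325 gene rows of which 17388 had 6 values, and all 10 were among the 13522 genes tested. The libraries came from IL-6 cultures collected at 6, 24 and 48 h and from control cultures collected at the same 3 times, with 1 library for each. The labels give neither the dose of IL-6 nor what the controls received, and they do not say whether each library is a culture of its own. The p-values below therefore rest on the variation among these 6 libraries, which may be technical. In the model for the IL-6 effect, a difference between IL-6 and control that changes with time counts as residual variation.

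NRF2, the product of NFE2L2, is a transcription factor that KEAP1 holds for degradation until oxidants or electrophiles modify KEAP1. Freed NRF2 pairs with small MAF proteins and binds antioxidant response elements of genes for glutathione synthesis, thioredoxin reduction and quinone detoxification. BACH1 binds the same elements as a repressor and leaves them when it binds haem, and HMOX1, whose enzyme breaks haem down to biliverdin, iron and carbon monoxide, is its best known target. In monocytes and macrophages HMOX1 is known as an inducible, anti-inflammatory gene that also answers to other pathways.

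The letters of the promoters show where the textbook recognition core of NRF2 lies close to the start sites of these genes. RefSeq promoter entries (GRCh38.p14, 250 bases before the start site to 50 after it) were matched for 9 of the 10 genes, in 14 entries, and not for HMOX1. The antioxidant response element core TGACNNNGC, searched on both strands, was present in 4 entries of 3 genes, GCLM, TXNRD1 and KEAP1, and in 13.3% of all 35116 promoter entries. Bases outside this window were not searched, so a gene without a match here may hold the core further away. The 110 bases before each of these start sites are printed 5′ to 3′ on the gene's strand, because GCLM was the gene besides HMOX1 whose IL-6 libraries all exceeded the controls, and TXNRD1 and KEAP1 hold the same core without that pattern. Capitals mark TGACNNNGC or its reverse complement and, in GCLM, also TTCNNNGAA, a spacing that STAT factors can bind.
GCLM, chr1:93909431-93909540, minus strand: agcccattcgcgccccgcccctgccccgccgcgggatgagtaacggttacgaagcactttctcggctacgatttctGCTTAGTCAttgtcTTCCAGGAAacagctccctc
KEAP1, chr19:10502772-10502881, minus strand: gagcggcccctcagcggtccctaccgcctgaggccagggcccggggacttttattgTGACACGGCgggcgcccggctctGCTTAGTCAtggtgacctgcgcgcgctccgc
TXNRD1, first entry, chr12:104215669-104215778, plus strand: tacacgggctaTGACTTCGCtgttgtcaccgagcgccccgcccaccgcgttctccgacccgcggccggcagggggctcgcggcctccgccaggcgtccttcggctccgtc
TXNRD1, second entry, chr12:104286922-104287031, plus strand: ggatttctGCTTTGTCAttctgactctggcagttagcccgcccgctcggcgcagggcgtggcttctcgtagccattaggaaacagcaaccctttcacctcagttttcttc

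With the start site counted as 0, the core in GCLM covered positions -34 to -26, and the TTCNNNGAA match covered -20 to -12. TTCNNNGAA was found in no other of the 14 entries, and 7.66% of all promoter entries hold it, so a single match is unremarkable. The core TGANTCA, shared by AP-1 sites and MAF recognition elements, was searched too. It was present in an entry of OSGIN1 and an entry of BACH1, and in 7.71% of all promoter entries. KEAP1 had cores at -54 to -46 and at -31 to -23, the second with the same letters as the core of GCLM. TXNRD1 had a core at -99 to -91 in its first entry, besides one from -8 that runs into the start site and is not capitalised, and one at -102 to -94 in the second. These are matches of letters, not shown sites of binding.

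Expression values were deposited as log2 values centred on each gene. Levels below are in an arbitrary unit recovered from them, with the smallest step taken as 0.001. They compare libraries for 1 gene, and the levels of named genes are not ranked against each other. Normalisation for transcript length is not given in the sources used here. Across genes, the mean level did serve to filter the tested genes, to fit the variance trend of limma and to group genes by level. The p-values and shares below rest on these uses. Read depth is unknown. The levels of NFE2L2, KEAP1 and TXNRD1 lie in a range where accidental matches occurred, from a mean level of 37.6 up, so for these 3 genes the log2 differences, which need no level, are the firmer values. Recovered levels of lower genes, HMOX1 included, can be wrong too, and the log2 differences and folds do not rest on them. The IL-6 libraries listed values for 22209 to 22733 genes and the control libraries for 22000 to 23108. Of 12 monocyte markers fixed for this line, including LYZ, SPI1 and CD33, all 12 had 6 values. Of these, 4 had a positive estimate for IL-6 and the median log2 difference was -0.23. At an unadjusted limma p under 0.05, 1 was higher and 4 were lower (LYZ, CD68, AZU1 and CD4, with -0.27, -0.24, -0.32 and -0.44). FCGR1A rose with IL-6, with a log2 difference of 0.65 ± 0.10 (limma adjusted p = 0.0354), and CD14 had 2.07 ± 0.85 without passing (limma adjusted p = 0.680). The part of these markers in the values below was not tested. Of 6 erythroid markers none had 6 values and 4 had no value, and 1 of 6 markers of T and NK cells (NKG7), 2 of 4 of B cells and 1 of 8 of epithelial cells and fibroblasts were tested, none past the threshold. PIM1, a STAT3 target gene, had log2 differences between IL-6 and control of 2.15, 2.76 and 3.09 at 6, 24 and 48 h.

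HMOX1 (ENSG00000100292.18, chromosome 22 from 35380361 to 35394214 on GRCh38) was higher in every IL-6 library than in any control library. Its level was 2.08, 3.74 and 7.97 in the IL-6 libraries of 6, 24 and 48 h, against 1.18, 0.446 and 0.771 in the matching controls. The IL-6 values lay further up at each later time, whereas among the controls the highest value was that of 6 h. The folds in order of time were 1.76, 8.40 and 10.3, or 0.82, 3.07 and 3.37 on the log2 scale. The mean log2 difference was 2.42 ± 0.49 (limma SE, 3 pairs; SD of the 3 differences 1.39), a 5.35-fold difference.

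Adjusted over all genes tested, HMOX1 missed the threshold of 0.05 (limma adjusted p = 0.144, unadjusted p = 0.000679). Without the 6 h pair the estimate was 3.22 and passed (limma adjusted p = 7.55e-05). That fit tests the 24 and 48 h pairs alone. The SE of limma is that of the mean and uses a variance shrunken towards genes of similar level, so it does not measure the spread of the 3 differences. The unadjusted 95% interval of the mean ran from 1.33 to 3.51. It is not a range for single pairs, and the value at 6 h, 0.82, lay below it.

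A log2 difference of 1 or more between the libraries of a time point was not rare. HMOX1 was the 1 gene of the 10 that was higher by that much at 24 h and again at 48 h, and OSGIN1 the 1 that was lower by that much, at 6 h. Over all tested genes the share higher by that much was 3.45%, 2.78% and 3.53% in order of time, and the share lower was 3.45%, 4.29% and 3.27%. Among the 3986 tested genes of mean level 1 to 5, to which HMOX1 and OSGIN1 belong, 9.21%, 7.18% and 8.71% were higher by that much at the 3 times and 9.81% were lower at 6 h. Higher by that much at both 24 and 48 h were 1.73% of these genes and 0.813% of all tested genes. A difference that was positive and grew from each time to the next, as for HMOX1, was found for 2.35% of tested genes.

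GCLM (ENSG00000023909.10, chromosome 1 from 93885199 to 93909456), the modifier subunit of glutamate-cysteine ligase, which sets the rate of glutathione synthesis, was the other gene whose IL-6 and control libraries did not overlap. Its level was 24.7, 26.0 and 25.3 in the IL-6 libraries of 6, 24 and 48 h, against 17.0, 18.9 and 17.8 in the controls. Both sets of 3 values were narrow, with highest over lowest ratios of 1.05 in IL-6 libraries and 1.11 in controls. The differences of 0.54, 0.46 and 0.50 on the log2 scale were thus alike at the 3 times, with a mean of 0.50 ± 0.14 (limma SE, 3 pairs; SD of the 3 differences 0.04), or 1.42-fold. GCLM missed the threshold too (limma adjusted p = 0.304, unadjusted p = 0.0053).

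No gene of the 10 passed in either direction, against 0.237% of all tested genes higher and 0.0074% lower with IL-6. At an unadjusted limma p under 0.05, HMOX1 and GCLM were higher and none was lower, against 3.71% of tested genes higher and 5.29% lower (502 and 715 genes, or 637 and 557 with equal library medians). All IL-6 libraries lay above all control libraries for the same 2 of 10 genes, against 3.51% of the tested genes and 4.32% of those of mean level 1 to 5. The opposite order occurred for none of the 10 and for 5.7% of tested genes. HMOX1 and GCLM were higher at all 3 times, against 12.5% of tested genes, and OSGIN1 and KEAP1 were lower at all 3, against 18.2%. Since the 10 genes were chosen with earlier results known, these counts are descriptions and not a test.

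**Figure D1:**
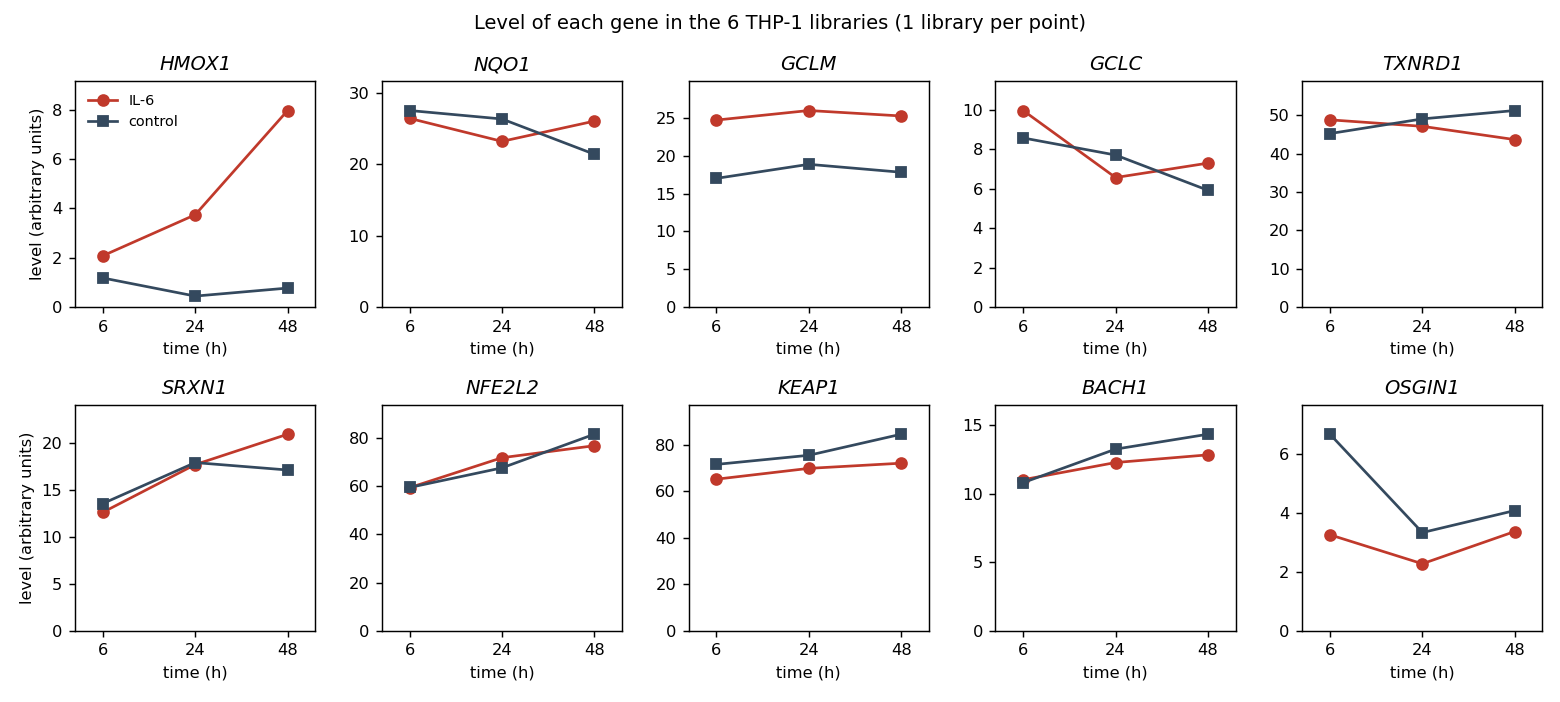
Level (arbitrary units, linear axis from 0) of each gene against time in h, with times evenly spaced, for IL-6 libraries (red circles) and control libraries (dark squares); each point is 1 library. HMOX1 and GCLM are the panels in which all 3 IL-6 points lie above all 3 control points.

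The catalytic subunit of the same ligase, GCLC (chromosome 6 from 53497341 to 53616970), did not show the pattern of its partner. Its level was 9.96, 6.57 and 7.30 in the IL-6 libraries, against 8.57, 7.71 and 5.92 in the controls. The 2 sets overlapped, and the IL-6 library was the lower one at 24 h. The log2 difference was 0.10 ± 0.21 (limma SE, 3 pairs, adjusted p = 0.933), with a 95% interval of -0.38 to 0.57.

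NQO1 (chromosome 16 from 69706996 to 69726668), the quinone reductase often read as the marker of NRF2 activity, had levels of 26.4, 23.2 and 26.0 in the IL-6 libraries and of 27.5, 26.3 and 21.4 in the controls. It was lower with IL-6 at 6 and 24 h and higher at 48 h. The mean log2 difference was 0.01 ± 0.15 (limma SE, 3 pairs, adjusted p = 0.988), and its 95% interval of -0.32 to 0.35 holds neither a doubling nor a halving.

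TXNRD1 (chromosome 12 from 104215779 to 104350307), cytosolic thioredoxin reductase, had levels of 48.8, 47.1 and 43.6 in the IL-6 libraries against 45.2, 49.0 and 51.2 in the controls. Its 3 log2 differences were 0.11, -0.06 and -0.23, and their mean of -0.06 ± 0.12 did not pass (limma SE, 3 pairs, adjusted p = 0.930). SRXN1 (chromosome 20 from 646615 to 653200), sulfiredoxin, which restores overoxidised peroxiredoxins, had levels of 12.6, 17.7 and 20.9 in the IL-6 libraries against 13.5, 17.9 and 17.1 in the controls. The mean difference of SRXN1 was 0.06 ± 0.16 (limma SE, 3 pairs, adjusted p = 0.950), and 48 h was the time at which its IL-6 library was the higher one.

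OSGIN1 (chromosome 16 from 83931311 to 83966332), an oxidative stress induced growth inhibitor, was below its control at each time. Its level was 3.26, 2.28 and 3.37 in the IL-6 libraries against 6.68, 3.34 and 4.08 in the controls. The control of 6 h stood above the other 5 libraries, and the highest IL-6 value just exceeded the lowest control value. The log2 differences were -1.03, -0.55 and -0.28, with a mean of -0.62 ± 0.29 that did not pass (limma SE, 3 pairs, adjusted p = 0.576), and its 95% interval ran from -1.25 to 0.01.

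The regulators differed little between IL-6 and control libraries. NFE2L2 (chromosome 2 from 177227595 to 177392697) had levels of 59.4, 71.9 and 76.9 in the IL-6 libraries against 59.5, 67.7 and 81.6 in the controls. The order of the 2 agents changed between times, and the mean log2 difference was -0.0006 ± 0.11 with a 95% interval of -0.25 to 0.24 (limma SE, 3 pairs, adjusted p = 0.999). NRF2 activity is mainly set by protein turnover, which these data do not measure.

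KEAP1 (chromosome 19 from 10486125 to 10503558) had levels of 65.2, 69.9 and 72.1 in the IL-6 libraries against 71.6, 75.5 and 84.6 in the controls. It was the lower one at each time, by 0.13, 0.11 and 0.23 on the log2 scale, and the sets overlapped. Its mean difference of -0.16 ± 0.11 did not pass (limma SE, 3 pairs, adjusted p = 0.734). With library medians made equal, the difference at 24 h was -0.04.

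BACH1 (chromosome 21 from 29194071 to 29630751) had levels of 11.04, 12.3 and 12.9 in the IL-6 libraries against 10.8, 13.3 and 14.4 in the controls. The log2 differences of 0.03, -0.11 and -0.16 had a mean of -0.08 ± 0.17 (limma SE, 3 pairs, adjusted p = 0.931). The BACH1 95% interval of -0.46 to 0.30 covers both directions.

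**Figure D2:**
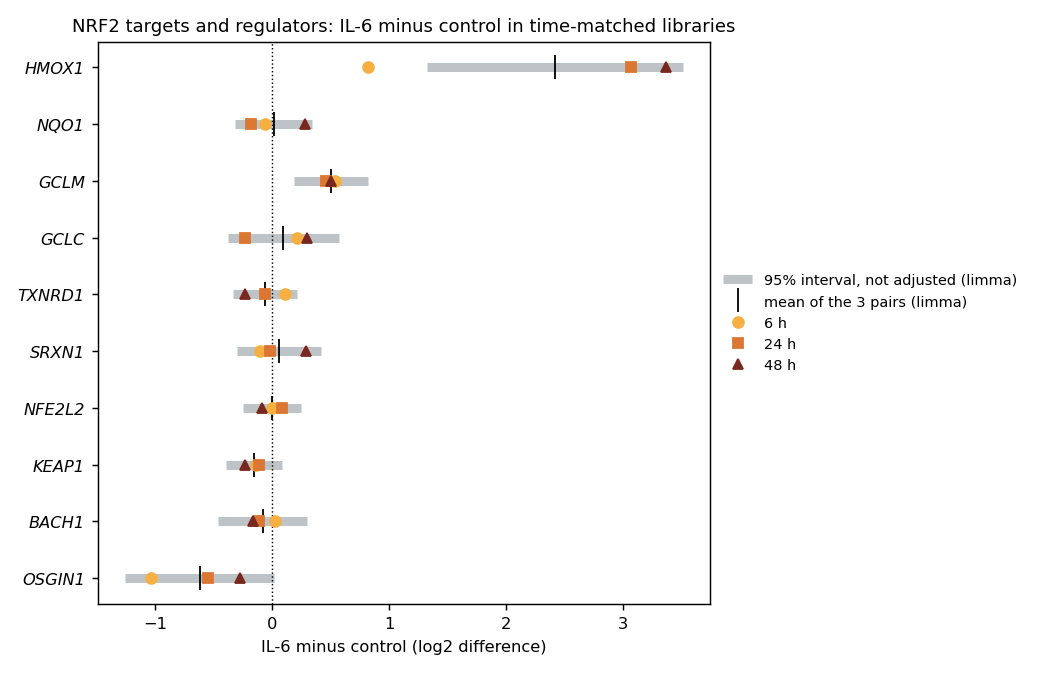
Difference between IL-6 and control (log2, horizontal axis) for each gene at 6 h (circles), 24 h (squares) and 48 h (triangles), with the mean of the 3 pairs (black bar) and its unadjusted 95% interval from limma (grey). HMOX1 lies at 0.82, 3.07 and 3.37, GCLM at 0.54, 0.46 and 0.50, and the other genes spread around 0 or, for OSGIN1 and KEAP1, lie below it at all 3 times.

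Reads were not assigned to a strand by the library kits, so an overlapping gene can share reads. No other gene of the deposited annotation overlapped HMOX1 or GCLM. NFE2L2 was overlapped by 10 annotated features, of which 3 had 6 values, with mean levels of 2.31, 1.08 and 0.274. TXNRD1 was overlapped on its own strand by the pseudogene RPL18AP3, which had 6 values and no recovered level, and the share of its reads in TXNRD1 was not tested. It was also overlapped by EID3 on the same strand, with 5 values, and by a lncRNA on the opposite strand, with 4. OSGIN1 was overlapped by MLYCD on the same strand, at a mean level of 0.687. NQO1, GCLC, SRXN1, KEAP1 and BACH1 were overlapped as well, by features of which none had 6 values.

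HMOX1 stood above the mean of the other NRF2 targets among the 10 genes at each time. The mean log2 difference of these 6 targets, NQO1, GCLM, GCLC, TXNRD1, SRXN1 and OSGIN1, was -0.06, -0.10 and 0.15 in order of time. HMOX1 exceeded that mean by 0.87, 3.17 and 3.22 at the 3 times, or by 2.42 on average (SD 1.34 over 3 times). On log2(level + 1), which damps low genes, the excess was 0.53, 1.78 and 2.20, and at 6 h HMOX1, at 0.50, then lay just below GCLM, at 0.51. The members were chosen with results known, so no p-value is given for this difference.

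Over the 6 libraries the Pearson correlation of deposited log2 values with HMOX1 was 0.81 for GCLM (Spearman 0.71), 0.30 for SRXN1 (0.20), 0.07 for NQO1 (-0.09) and 0.01 for GCLC (-0.03). It was negative for OSGIN1, at -0.38 (-0.31), and for TXNRD1, at -0.70 (-0.77). Of all tested genes 1.69% had a higher Pearson correlation with HMOX1 than GCLM. Among the regulators the value was 0.17 (0.09) for NFE2L2, -0.50 (-0.54) for KEAP1 and -0.23 (-0.37) for BACH1. The 6 points share 3 times and 2 agents, and these values are descriptions without a test.

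The 5 genes most like HMOX1 by Pearson correlation over the 6 libraries, of 9535 genes at mean level 5 or more, were DPYD (0.98), PJA1 (0.97), IFT20 (0.97), IDH3G (0.96) and HSD11B1 (0.96). DPYD, which encodes the enzyme that starts pyrimidine breakdown, had deposited log2 values of -0.03, 0.21 and 0.51 in the IL-6 libraries against -0.05, -0.36 and -0.28 in the controls, and its order of libraries was that of HMOX1. HSD11B1, which regenerates active glucocorticoid, spanned 2.50 on the log2 scale over the 6 libraries, and the other 4 genes spanned 0.27 to 0.87.

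The difference between IL-6 and control for HMOX1 at 6 h minus its mean at 24 and 48 h was -2.40 ± 0.75 on the log2 scale (limma SE, 1 residual degree of freedom). This missed the threshold (limma adjusted p = 0.540, unadjusted p = 0.00404), which 0.237% of genes passed in either direction. HMOX1 was the 1 gene of the 10 with an unadjusted p under 0.05 here, against 1.92% of tested genes lower at 6 h and 2.09% higher. The effect at 48 h exceeded the mean of 6 and 24 h by 1.43 ± 0.93 (limma adjusted p = 0.752, with 0.0518% of genes past the threshold). For the other 9 genes neither of these contrasts passed by limma, and the estimate furthest from 0 was the -0.62 of OSGIN1 for 6 h against later.

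With time in culture, several of these genes had differences of the same sign with IL-6 and without it. NFE2L2 was higher at 48 h than at 6 h by 0.37 in IL-6 libraries and 0.46 in controls, SRXN1 by 0.73 and 0.34, and BACH1 by 0.22 and 0.41, all on the log2 scale. GCLC was lower at 48 h than at 6 h, with differences of -0.45 in IL-6 libraries and -0.53 in controls. HMOX1 differed between the agents, with 1.94 in IL-6 libraries and -0.61 in controls.

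None of the 10 genes passed for culture time in limma. The contrast of 48 h with 6 h, which 2.51% of tested genes passed upward and 1.42% downward, gave 0.41 ± 0.13 for NFE2L2 (limma adjusted p = 0.113) and 0.53 ± 0.20 for SRXN1 (limma adjusted p = 0.155). These 2 were higher at an unadjusted p under 0.05 and no member was lower, against 13.2% of tested genes higher and 8.31% lower. At 24 h against 6 h, where 1.63% of genes passed upward and 0.296% downward, SRXN1 had an estimate of 0.45 ± 0.20 (limma adjusted p = 0.280) and was again past the unadjusted threshold, with no member lower, against 12.6% of tested genes higher and 4.89% lower. Between 48 and 24 h, with 0.104% of genes past the threshold upward and 0.414% downward, no member passed, also not at an unadjusted limma p under 0.05, which 4.05% of genes passed upward and 7.71% downward. With equal library medians the median over all genes of the difference between 24 and 6 h was 0.0071 in place of 0.11, and 139 genes were higher and 63 lower in place of 220 and 40. For 48 h against 6 h the split was then 280 higher and 288 lower in place of 339 and 192.

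Of 38 further NRF2 target genes 31 were tested and none passed by limma. At an unadjusted p under 0.05, 4 were higher and 1 was lower, 16 had a positive estimate, and the median log2 difference was 0.00. Over all genes tested 3.71% were higher and 5.29% lower by that measure, 44.0% had a positive estimate and the median was -0.03. SLC7A11, the cystine importer that supplies glutathione synthesis, had the estimate furthest from 0, at 1.04 ± 0.45 (limma adjusted p = 0.545), with differences of 0.25, 2.36 and 0.51. TRIM16 had 0.61 ± 0.24 (limma adjusted p = 0.468), and AKR1C2, an aldo-keto reductase gene, 0.54 ± 0.42 (limma adjusted p = 0.775), with a difference of 0.98 at 6 h, above the 0.82 of HMOX1. TRIM16 and AKR1C2 have near-identical relatives (TRIM16L and AKR1C1), so reads could be split between them and their values are uncertain. These relatives were too low to be tested. TRIM16L had log2 values of -1.86, -1.10 and 0.51 in IL-6 libraries against -0.005, 1.02 and 1.43 in controls. AKR1C1 had -1.70, -3.80 and 1.26 in IL-6 libraries against 1.98, 1.21 and 1.06 in controls. Whether reads moved between relatives was not tested. CBR1, carbonyl reductase, PGD, an enzyme that makes NADPH, and CES1, a carboxylesterase, were picked after their values were seen. CBR1 had 0.36, 0.41 and 0.33 at the 3 times and PGD 0.16, 0.25 and 0.52, and neither passed (limma adjusted p = 0.327 and 0.426). CES1 pointed the other way, with -0.25, -0.64 and -0.39 and every IL-6 library below every control, and did not pass (limma adjusted p = 0.259).

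Of 15 genes of haem and iron handling, 11 were tested, none passed by limma, 4 had a positive estimate and the median was -0.02. Past an unadjusted limma p of 0.05, 2 were higher and 1 was lower, against 3.71% of tested genes higher and 5.29% lower. HMOX2, the constitutive haem oxygenase, had -0.05 ± 0.12 (limma adjusted p = 0.944), and the biliverdin reductases BLVRA and BLVRB, which act on the product of HMOX1, had -0.0002 ± 0.11 and -0.06 ± 0.13 (limma adjusted p = 0.9995 and 0.925). The ferritin genes FTL and FTH1, which store the iron released and are NRF2 targets too, had 0.17 ± 0.12 and -0.02 ± 0.13 (limma adjusted p = 0.749 and 0.984).

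Within this list 3 genes stood furthest from 0. HP, which encodes haptoglobin, had 0.78 ± 0.21 (limma adjusted p = 0.280), with levels of 23.8, 15.4 and 24.7 in IL-6 libraries against 19.2, 10.1 and 9.11 in controls. ALAS1, the first enzyme of haem synthesis, had 0.71 ± 0.12, just short of the threshold (limma adjusted p = 0.0536), with log2 differences of 0.46, 0.72 and 0.95. No level was recovered for ALAS1, so its limma SE and p-value rest in part on an assumed level of 100. SLC40A1, which encodes the iron exporter ferroportin and is known as a target of both NRF2 and BACH1, pointed the other way. Its level was 15.0, 10.2 and 8.46 in IL-6 libraries against 23.7, 16.9 and 13.1 in controls. The differences of SLC40A1 were -0.66, -0.73 and -0.63 at the 3 times, with a mean of -0.67 ± 0.16 (limma adjusted p = 0.204).

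CD163, the scavenger receptor for haemoglobin bound to haptoglobin, was not tested because the control of 48 h had no value. Its deposited log2 values were -0.63, 1.47 and 1.55 in the IL-6 libraries of 6, 24 and 48 h, against -0.48 and -1.92 in the controls of 6 and 24 h. The 2 agents were close at 6 h and apart at 24 h.

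**Figure D3:**
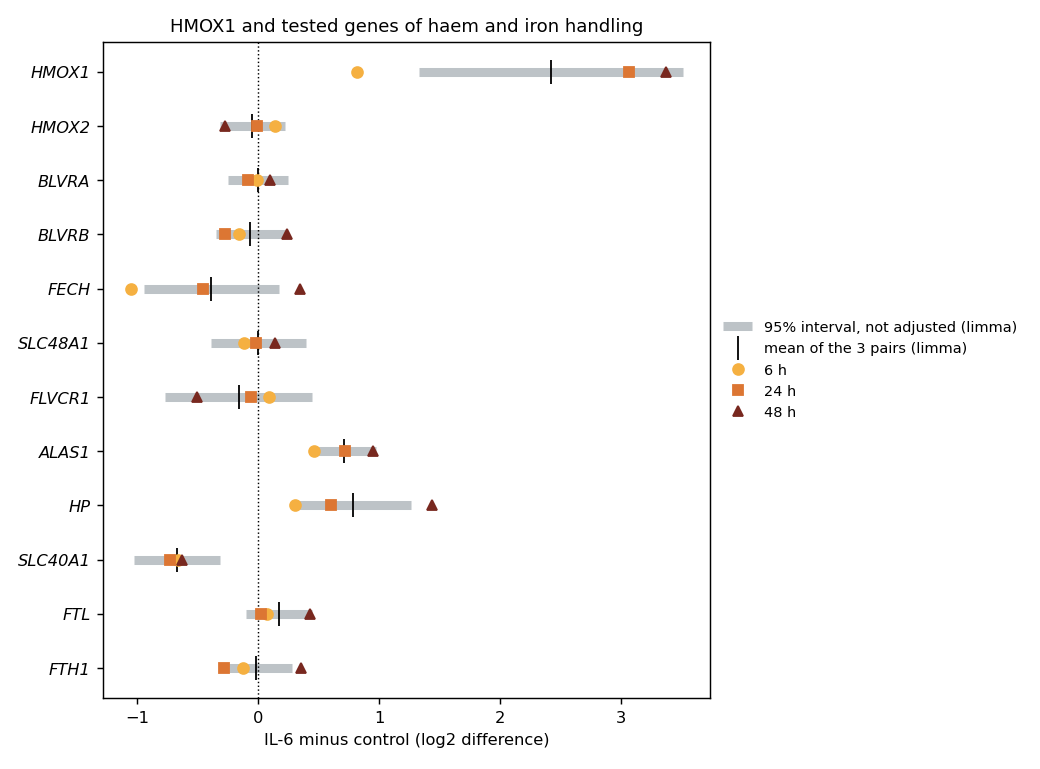
Difference between IL-6 and control (log2) for HMOX1 and the 11 tested genes of haem and iron handling at 6 h (circles), 24 h (squares) and 48 h (triangles), with the mean of the 3 pairs (black bar) and its unadjusted 95% interval from limma (grey). HMOX1, ALAS1, HP and FTL lie above 0 and SLC40A1 below 0 at all 3 times, and HMOX1 has the mean furthest from 0.

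Of 17 partners of NRF2 and BACH1 and genes of their turnover, 15 were tested, none passed by limma and the median was 0.04. Past an unadjusted limma p of 0.05, 1 was higher and none was lower, against 3.71% of tested genes higher and 5.29% lower. NFE2, a relative of NRF2 known from blood cells, had 0.63 ± 0.11, with differences of 0.58, 0.47 and 0.84 (limma adjusted p = 0.0743). BTRC, a receptor of the ligase that degrades NRF2 independently of KEAP1, had -0.43 ± 0.56, and SYVN1, another ligase for NRF2, 0.31 ± 0.18 (limma adjusted p = 0.885 and 0.671). CUL3, the scaffold through which KEAP1 acts, had -0.06 ± 0.12 (limma adjusted p = 0.933).

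Among 20 antioxidant enzymes and related genes outside these lists, all tested, none passed by limma, 10 had a positive estimate and the median was -0.02. Past an unadjusted limma p of 0.05, 1 was higher and 2 were lower, against 3.71% of tested genes higher and 5.29% lower. SESN2, a stress-induced sestrin gene, had 0.61 ± 0.24 (limma adjusted p = 0.472), TXNIP, the inhibitor of thioredoxin, -0.52 ± 0.12 (limma adjusted p = 0.206), and SESN1 -0.46 ± 0.15 (limma adjusted p = 0.362). Superoxide dismutase SOD2 and catalase (CAT) had 0.06 ± 0.12 and -0.12 ± 0.10 (limma adjusted p = 0.925 and 0.796).

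Of 23 genes of other pathways known to induce HMOX1, 21 were tested, and the median log2 difference was 0.36. By limma 4 rose (PIM1, BCL3, STAT3 and CHAC1) and none fell, against 0.237% of all tested genes higher and 0.0074% lower. Past an unadjusted limma p of 0.05, 11 were higher and none was lower, against 3.71% of tested genes higher and 5.29% lower. This list was put together with earlier results of these data known, so its direction is not independent evidence. PIM1 rose by 2.67 ± 0.18, BCL3 by 2.48 ± 0.15, STAT3 by 0.78 ± 0.12 and CHAC1, a glutathione-degrading enzyme induced by ATF4, by 1.31 ± 0.20 (limma adjusted p = 0.00022, 0.000132, 0.0277 and 0.0299). SOCS3, the feedback inhibitor of IL-6 receptor signalling, had 2.54 ± 0.48 and missed the threshold (limma adjusted p = 0.116), with differences of 2.16, 1.39 and 4.06.

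ATF3, a stress-induced transcription factor that was picked after its values were seen, had levels of 1.26, 2.16 and 3.66 in the IL-6 libraries against 0.658, 1.07 and 0.845 in controls. For ATF3 the estimate was 1.35 ± 0.43 and missed the threshold (limma adjusted p = 0.362). The heat shock genes HSPA1A and HSPA1B, which are near-identical copies and therefore uncertain singly, had -0.25 ± 0.19 and -0.13 ± 0.20 (limma adjusted p = 0.764 and 0.899).

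**Figure D4:**
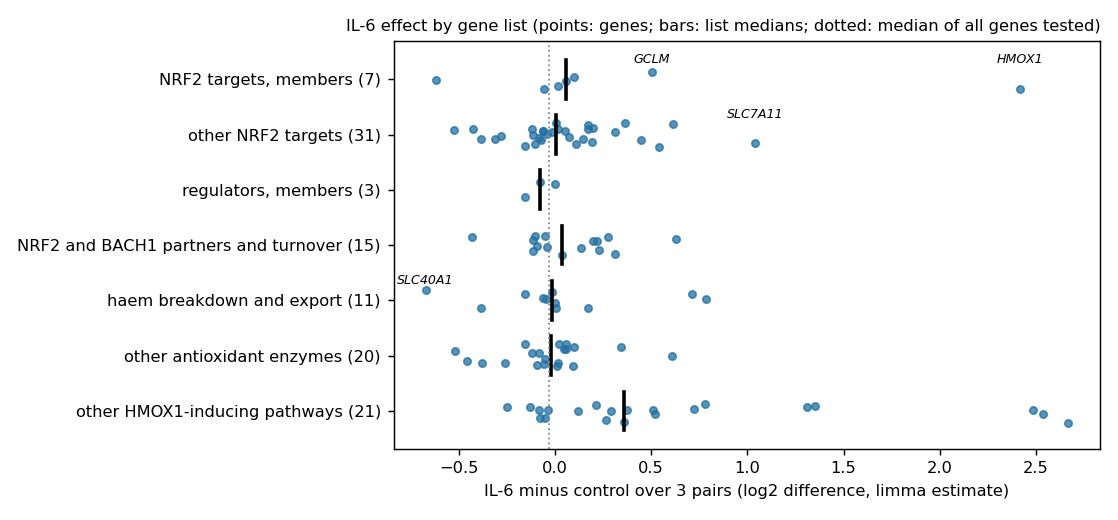
Estimated IL-6 effect over 3 pairs (log2, limma) for each tested gene (points) of the NRF2 and BACH1 genes and of 5 further lists, with list medians (black bars), the number of genes tested in brackets and the median of all genes tested (dotted line). The points are spread vertically only to part them; HMOX1 at 2.42 lies apart from the other NRF2 targets, whose further list has a median of 0.00.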

How the data were processed

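RNA-seq was measured in 6 THP-1 libraries. The kits named in the labels' protocols, SMART-seq for amplification and Nextera XT for the libraries, do not mark strand. The build is GRCh38 (hg38), per the submitters' processing notes. Not given in the sources used here are the aligner, counter and normalization. The deposited values are log2 values, named processed signal per the file headers, and each gene's values average 0 to within 1.8e-07.

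Levels were recovered with Python 3.11.15 by removing 1 factor per library and finding the whole numbers of steps of 0.001, up to a level of 100, whose ratios fit within 2e-06 (6e-07 above 5000 steps). The levels of 105 genes with libraries at a floor of 0.01 were added. In all 15703 genes, 90.3% of those with 6 values, were matched, and 1685 were not and were treated as high. The variance trend placed these unmatched genes at a level of 100, so their SEs and p-values rest in part on that assumption. Among them were ALAS1, NFE2, STAT3 and FCGR1A. Of 2000 decoys 130 matched by accident. A level could also be a whole multiple of the one given.

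With limma 3.58.1 (R 4.3.3) a linear model was fitted to the deposited log2 values of 13522 genes (6 values, mean level 1 or more), with time point and agent in the model, robust empirical Bayes and a trend on level (median prior of 8.10 degrees of freedom, 2 residual), and Benjamini-Hochberg adjustment over all tested genes at 0.05. Time pairs IL-6 and control libraries by the labels. The models were tested on simulated data. Members and lists were chosen with earlier results of these data known. Named besides the 10 genes are, of each further list, those past the threshold and the 3 estimates furthest from 0, and the 5 genes most correlated with HMOX1. Further genes (CBR1, PGD, CES1, TRIM16L, AKR1C1, HMOX2, BLVRA, BLVRB, FTL, FTH1, CD163, CUL3, SOD2, CAT, HSPA1A, HSPA1B, ATF3 and the markers) were named outside this rule after their values were seen. Alternatives changed the scaling, level filter, pseudocount, variance model, time term or left out a pair.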

Additional observations from a re-analysis of the deposited data

Results flagged for a closer look

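For 6 of the 10 genes the difference between IL-6 and control had opposite signs at different times, with 1 library for each condition. The difference between times was not tested for these signs. The highest minus the lowest log2 difference was 0.53 for GCLC, 0.47 for NQO1, 0.39 for SRXN1, 0.34 for TXNRD1, 0.19 for BACH1 and 0.17 for NFE2L2. HMOX1, GCLM, OSGIN1 and KEAP1 kept 1 sign at the 3 times.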

How the results depend on the processing

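The IL-6 estimate of HMOX1 stayed positive in all 9 alternatives that could be fitted, from 1.52 on log2(level + 1) to 3.22 without the 6 h pair, and it passed in that last one alone. Leaving out 1 pair in turn gave 1.94 to 3.22. The filter at a mean level of 5 removes HMOX1 and OSGIN1. GCLM stayed positive in 10 of 10 alternatives, from 0.48 to 0.54, and passed in none (limma adjusted p from 0.229 to 0.963). The mean excess of HMOX1 over the other targets was 1.504 on log2(level + 1).

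The count of genes past the threshold for IL-6 was 33, against 13 with no level filter, 12 with non-robust empirical Bayes and 4 with no replicate block (no time term), and leaving out 1 pair gave 17 genes (24 h) to 117 genes (6 h). Without the variance trend 0 genes passed for IL-6 (460 higher and 624 lower at an unadjusted limma p under 0.05), for each time contrast and for each change of the effect with time. With no level filter the counts for 24 h against 6 h, 48 h against 6 h and 48 h against 24 h were 144, 268 and 10, against 260, 531 and 70, and with non-robust empirical Bayes they were 147, 255 and 8. For 48 h against 24 h, 132 passed at a mean level of at least 5 and 45 on log2(level + 1). For the effect at 48 h against earlier, 7 genes passed, and 1 with equal library medians, 0 with no level filter, 38 at a mean level of at least 5, 23 on log2(level + 1) and 1 with non-robust empirical Bayes. For the effect at 6 h against later, 32 passed, and 21 on log2(level + 1).

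Small estimates changed sign, none of them past the threshold. For IL-6, leaving out 1 pair in turn gave -0.12 to 0.11 for NQO1, -0.0072 to 0.26 for GCLC, -0.14 to 0.026 for TXNRD1, -0.060 to 0.14 for SRXN1 and -0.044 to 0.043 for NFE2L2, which was 0.00011 without the 6 h pair and 0.036 with equal library medians. With equal medians the difference between 24 and 6 h was -0.067 for TXNRD1 and -0.012 for KEAP1, that between 48 and 6 h was -0.014 for GCLM and -0.053 for TXNRD1, and that between 48 and 24 h was 0.013 for TXNRD1. The effect at 6 h against later was then -0.0067 for GCLM and -0.027 for KEAP1. On log2(level + 1) the difference of HMOX1 between 24 and 6 h was 0.015. The causes were not tested. Unknown depth limits all values of low genes such as HMOX1.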
